A study of Mus musculus with 6 samples.

Results

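Genes that make, take up, store and export cholesterol were followed in sciatic nerves of OGT_SCKO mice, named for Ogt, the gene of the enzyme that attaches the single sugar O-GlcNAc to nuclear and cytoplasmic proteins. The set holds 34 genes of the 30214 gene names on the array. It was chosen by gene symbol: every probe that was not a control spot and carried a listed symbol was used, which gave 50 of 39429 probes. Sc4mol on the array is the older symbol of Msmo1. By role the set holds 18 synthesis enzymes, 4 genes of the SREBP control, 3 of uptake, 5 of lysosomal release, transport and storage, and 4 of efflux and its control.

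Littermate controls (Ctrl) and OGT_SCKO mice, which the labels' protocol names OGT-KO, gave 3 pools of nerves per group. All mice were 1 month old and on the background the labels spell C56 BL6, and each pool was hybridised to 1 array. The series title places the question in Schwann cells, the glia that wrap and myelinate peripheral axons, and in the transcription factor JUN. The driver of the deletion, the deleted part of Ogt, the exact control genotype and the number of animals per pool are not given in the sources used here. The p-values therefore rest on how pools varied.

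Cholesterol is built from acetyl-CoA through mevalonate, isoprenoid diphosphates, squalene and lanosterol, and a long series of demethylation, reduction and isomerisation steps turns lanosterol into cholesterol. When sterols run low in the endoplasmic reticulum, SCAP carries the transcription factor SREBP2 to the Golgi for activation, and INSIG proteins hold SCAP back when sterols are plentiful. Lipoprotein receptors bring cholesterol in, lysosomal acid lipase and the NPC proteins release it, and the oxysterol receptors LXR switch on exporters of the ABC family. Myelin is rich in cholesterol, and Schwann cells make much of it themselves.

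Ogt was lower in every OGT_SCKO pool. The probe at 98879145 to 98879204 on chromosome X (mm9) stood at 41.3% of control (limma adjusted p = 0.00109), and a second probe stood at 50.5% (adjusted p = 0.0239). The 75th percentile of array signal ran from 2748 to 6158, and 58.9% to 65.2% of probes were well above background. Slide 1 held Ctrl 2 and all OGT_SCKO pools, and slide 2 held Ctrl 1 and Ctrl 3. All 8 Schwann cell markers were above background on all 6 arrays, and 3 were called lower (S100b, Prx and 1 probe of Ncam1). The other Ncam1 probes were not called, with log2 differences of -0.06 and 0.03 (limma adjusted p = 0.832 and 0.908). The mean level of the 8 markers was 5.2 to 5.5 in Ctrl and 4.58 to 5.14 in OGT_SCKO. Mean levels of all marker lists take only the brightest probe of each gene. For Mbp that probe gave -0.41 and a dimmer one 0.61, neither called (limma adjusted p = 0.254 and 0.11). All levels given here are log2 signals with the 75th percentile of the array set to 0. Adipocyte markers were called lower for 5 of 7 genes, with mean levels of -2.86 to -0.95 in Ctrl and -5.78 to -3.45 in OGT_SCKO, and Lep was not above background on any array. Of those 5, Adipoq, Cidec and Retn were above background on all Ctrl arrays but on 1, 1 and 2 OGT_SCKO arrays, and passed the filter through Ctrl alone. Skeletal muscle markers were called lower for 4 of 5 genes, from -2.53 to -2.16 in Ctrl to -4.66 to -3.82 in OGT_SCKO. Macrophage markers ran from 1.58 to 1.91 in Ctrl and from 1.89 to 2.12 in OGT_SCKO, with 1 of 7 genes called higher. These are bulk samples, in which fewer cells of a type and less RNA per cell cannot be told apart. The part of the marker shifts in the results was not tested.

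Promoter sequence is shown first, because most of these genes are textbook targets of SREBP2, which binds sterol regulatory elements and acts beside the CCAAT-binding factor NF-Y. A RefSeq table of assembly GRCm38.p6 gave the 250 bases before the start of 27 of the 34 genes. Fdps, Fdft1, Sqle, Scarb1, Npc1, Stard4 and Abcg1 were not matched. Both strands were searched for TCACNCCAC (GTGGNGTGA on the other strand), as a sterol regulatory element. They were also searched for CCAAT, the NF-Y box, which reads ATTGG on the other strand. No match overlapped another. The first motif lay in 346 of 32851 promoters (1.05%) and, among the matched genes, in Hmgcs1 alone, 137 to 129 bases before the start. CCAAT lay in 11120 of 32851 promoters (33.8%), in 21 of the 34 promoters that the matched genes have in the table, and so in 21 of the 27 genes. By role it was found in 14 of 15 synthesis enzymes (not in Acat2), 3 of 4 SREBP control genes, 1 of 2 uptake genes, 3 of 3 genes of lysosome, transport and storage, and 0 of 3 efflux genes. All 5 matched genes with a lower probe held it, as did all 4 with a higher probe and 12 of 18 with no called probe. The 5 promoters printed here are of genes with probes called in opposite directions, with the matches in capitals. Hmgcs1 (chr13:119690101-119690350, plus strand), Hsd17b7 (chr1:169969206-169969455, minus strand) and Lss (chr10:76531355-76531604, plus strand) were called lower in OGT_SCKO nerves. Mvk (chr5:114444019-114444268, plus strand) and Tm7sf2 (chr19:6067851-6068100, minus strand) were called higher, each by 1 of 2 probes. The calls of Lss, Mvk and Tm7sf2 ended when slide was added to the fit as a fixed block. A match is a description of letters and not of binding. Only the exact letters TCACNCCAC were searched, so a promoter with no match may still hold a sterol regulatory element of another spelling.
Hmgcs1: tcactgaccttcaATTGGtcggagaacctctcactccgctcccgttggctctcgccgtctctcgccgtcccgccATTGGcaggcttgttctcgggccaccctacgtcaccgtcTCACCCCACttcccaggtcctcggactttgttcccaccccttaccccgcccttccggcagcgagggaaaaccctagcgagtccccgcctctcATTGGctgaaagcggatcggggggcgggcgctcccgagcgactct
Hsd17b7: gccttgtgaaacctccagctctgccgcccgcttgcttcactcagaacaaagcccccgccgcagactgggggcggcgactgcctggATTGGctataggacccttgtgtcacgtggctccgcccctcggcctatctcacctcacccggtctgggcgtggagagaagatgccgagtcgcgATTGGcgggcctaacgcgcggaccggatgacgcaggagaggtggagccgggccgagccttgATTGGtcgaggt
Lss: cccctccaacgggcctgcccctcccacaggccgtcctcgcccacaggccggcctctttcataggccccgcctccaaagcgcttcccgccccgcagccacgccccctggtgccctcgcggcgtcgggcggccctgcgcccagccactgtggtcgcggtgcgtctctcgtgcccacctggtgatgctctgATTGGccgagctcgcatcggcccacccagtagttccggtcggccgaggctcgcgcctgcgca
Mvk: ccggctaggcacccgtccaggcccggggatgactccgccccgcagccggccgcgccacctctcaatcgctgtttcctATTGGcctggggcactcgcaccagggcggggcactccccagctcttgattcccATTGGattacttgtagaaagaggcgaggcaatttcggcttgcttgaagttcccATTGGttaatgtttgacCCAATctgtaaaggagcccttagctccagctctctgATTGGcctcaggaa
Tm7sf2: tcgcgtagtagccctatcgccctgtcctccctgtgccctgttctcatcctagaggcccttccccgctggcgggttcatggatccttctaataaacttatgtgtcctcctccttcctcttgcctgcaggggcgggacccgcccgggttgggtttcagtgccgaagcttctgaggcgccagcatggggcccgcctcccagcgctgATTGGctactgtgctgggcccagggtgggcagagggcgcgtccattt

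**Figure D1:**
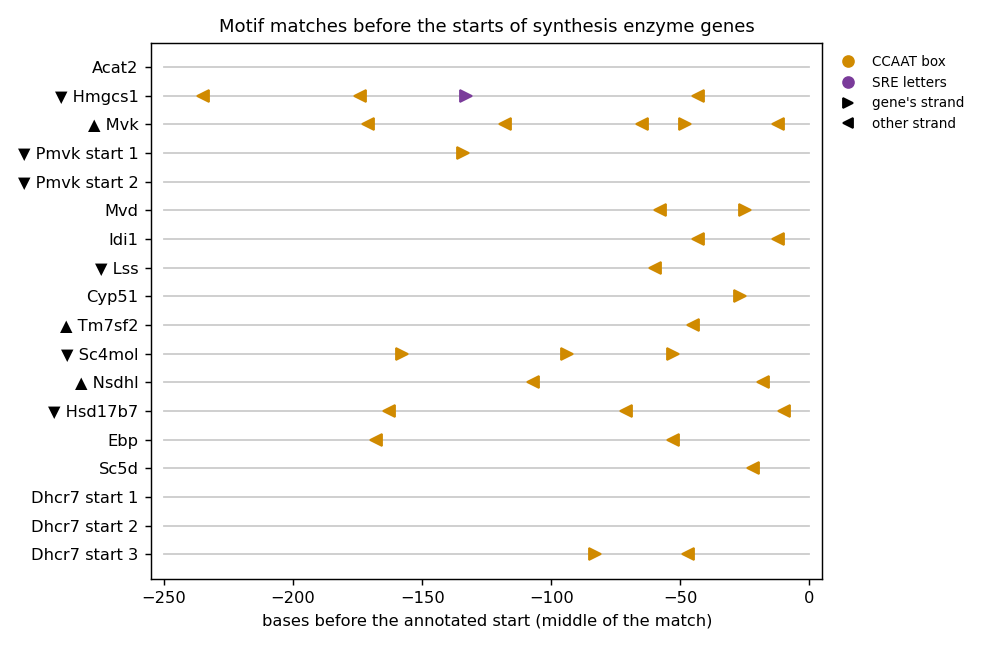
Matches to the CCAAT letters and to the sterol regulatory element letters in the 250 bases before the start of the 15 matched synthesis enzymes, by the match's middle in bases before the start (horizontal axis), with 1 line per annotated start. Marker direction gives the strand, and black triangles beside a name mark genes with a probe called lower (down) or higher (up). The sterol regulatory element match is in Hmgcs1 alone, and every gene shown other than Acat2 has a CCAAT match at 1 or more of its starts.

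Of the 50 probes, 48 of 34 genes were well above background in at least 1 whole group and were tested. Among them 11 (22.9%, 8 genes) were called lower and 8 (16.7%, 6 genes) called higher at a limma adjusted p under 0.05, and 20 genes had no called probe. Over all 24287 probes tested, 23.5% were called, 11.9% lower and 11.6% higher, which is a description beside the member shares and no test. The median log2 fold change was 0.11 over the members and -0.06 over all probes. Each of the 19 called probes had groups that did not overlap, which is no support apart from the calls. The exact permutation test cannot go below p = 0.1 with 3 against 3. Every Ctrl pool lay above every OGT_SCKO pool in 15 of the 48 tested probes (31.2%, all probes 24.6%). The reverse held in 17 (35.4%, all probes 21.0%). Leaving out 1 pool at a time, the called members ranged from 7 to 11 lower and from 2 to 9 higher. Each left-out pool changed the share of all probes called as well. Lower members made up 18.8% without Ctrl 1 (9 probes, all probes 6.14%), 16.7% without Ctrl 2 (8 probes, 6.64%) and 14.6% without Ctrl 3 (7 probes, 5.26%). They made up 22.9% without OGT_SCKO 1 (11 probes, 16.7%), 22.9% without OGT_SCKO 2 (11 probes, 11.0%) and 14.6% without OGT_SCKO 3 (7 probes, 5.19%). The share of lower members was thus above that of all probes in each of these fits. The fits share arrays, and the members were listed with earlier results of these data known. The lower share is therefore a description and no test of the list. For higher members the order turned. They made up 6.25% without Ctrl 1 (3 probes, all probes 7.16%), 6.25% without Ctrl 2 (3 probes, 7%), 4.17% without Ctrl 3 (2 probes, 6.18%) and 8.33% without OGT_SCKO 2 (4 probes, 10.3%). Without OGT_SCKO 1 they were 18.8% (9 probes, 12.8%) and without OGT_SCKO 3 they were 6.25% (3 probes, 5.66%). The higher share is therefore not read as standing apart from all probes. With slide as a fixed block, 6 member probes were called, all lower (12.5%, against 2.91% of all probes called lower), and none was higher (all probes 3.90%). That fit called 6.81% of all probes in either direction, and slide as a block means this fit wherever no other kind is named. The 6 were the probes of Hmgcs1, Pmvk, Fdps, Fdft1, Hsd17b7 and Abcg1 with the smallest adjusted p of their gene. Slide 2 held controls only, so the contrast of that fit rests on Ctrl 2 as the control pool. Ctrl 2 was the array with the lowest 75th percentile of signal (2748). A call that held or ended with slide as a block is to be read with this limit, here and below. With slide as a random block, where arrays of a slide had a correlation of -0.13, all 19 calls held. That fit called 12 members lower (25%, all probes 14.2%) and 9 higher (18.8%, all probes 13.3%). Within slide 1, where 1 control pool meets 3 OGT_SCKO pools, no member was called, against 2.47% of all probes, and all 19 kept their direction.

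**Figure D2:**
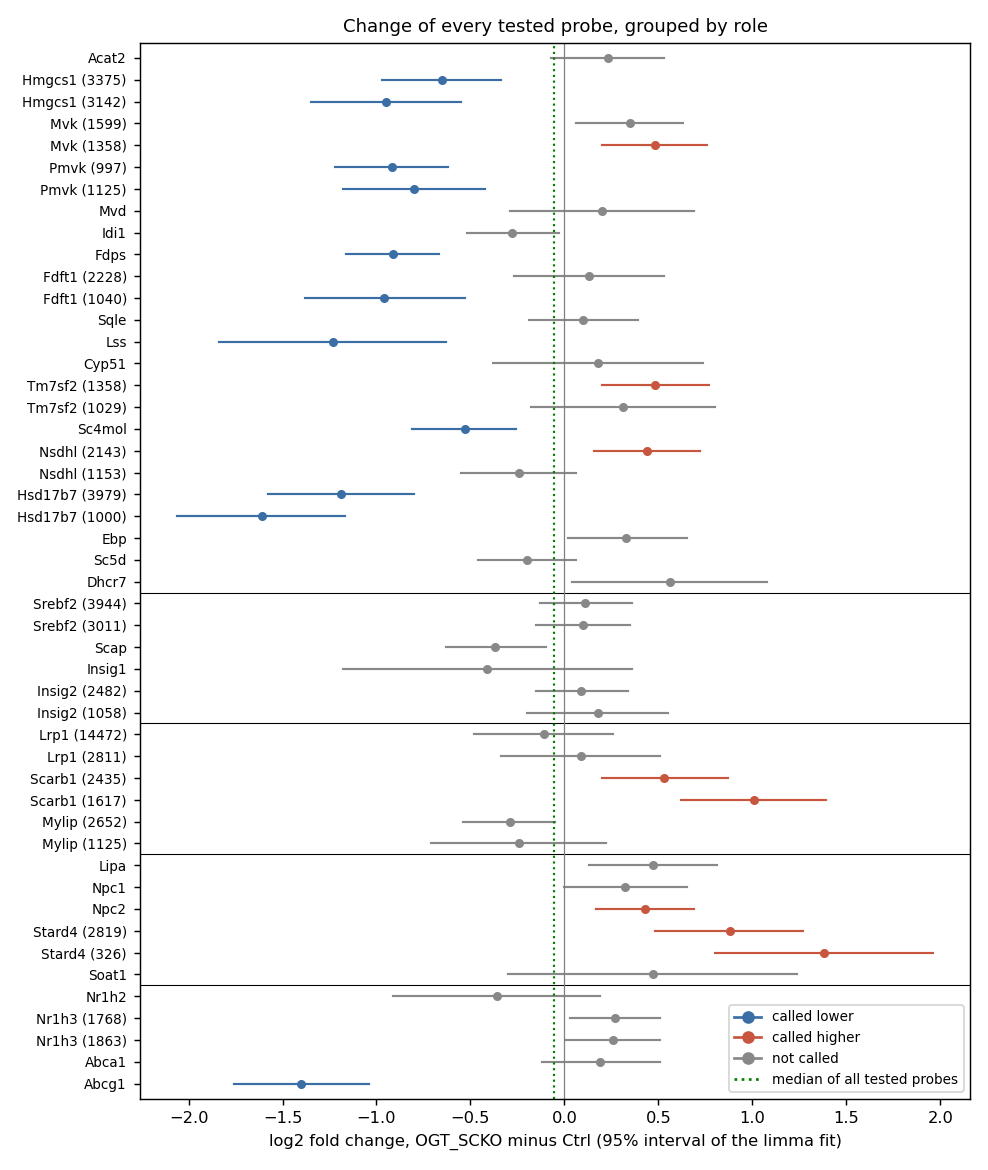
Log2 fold change (OGT_SCKO minus Ctrl, horizontal axis) of the 48 tested probes in pathway order, with points for the limma estimate, bars for its 95% interval, and lines between the roles. Numbers in parentheses are the probe's start in its transcript. Hsd17b7, Abcg1 and Lss lie farthest to the left and Stard4 and Scarb1 farthest to the right.

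More synthesis enzyme probes were called lower than higher. Probes of Hmgcs1, Pmvk, Fdps, Fdft1, Lss, Sc4mol and Hsd17b7 were lower in OGT_SCKO nerves by 1.45-fold to 3.06-fold, which makes 10 of 25 tested probes (40%), while probes of Mvk, Tm7sf2 and Nsdhl were 1.36-fold to 1.4-fold higher (3 probes, 12%). The other 12 probes were not called, and 8 of the 18 enzymes had no called probe. Over all tested probes 11.9% were called lower and 11.6% higher, so the higher share is not read as standing apart. The lower share is a description and no test, since the genes were listed with earlier results of these data known. Each of the 3 higher calls held in 1 of 6 leave-one-out fits. The median log2 fold change of the 25 probes was -0.20, against -0.06 over all probes, and moved to -0.05 with quantile normalisation, where the median of all probes was 0.01. With no filter on dim probes both medians were -0.22. In 12 probes (48%) every Ctrl pool lay above every OGT_SCKO pool, and in 7 (28%) the reverse held. Over all tested probes these shares were 24.6% and 21.0%.

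**Figure D3:**
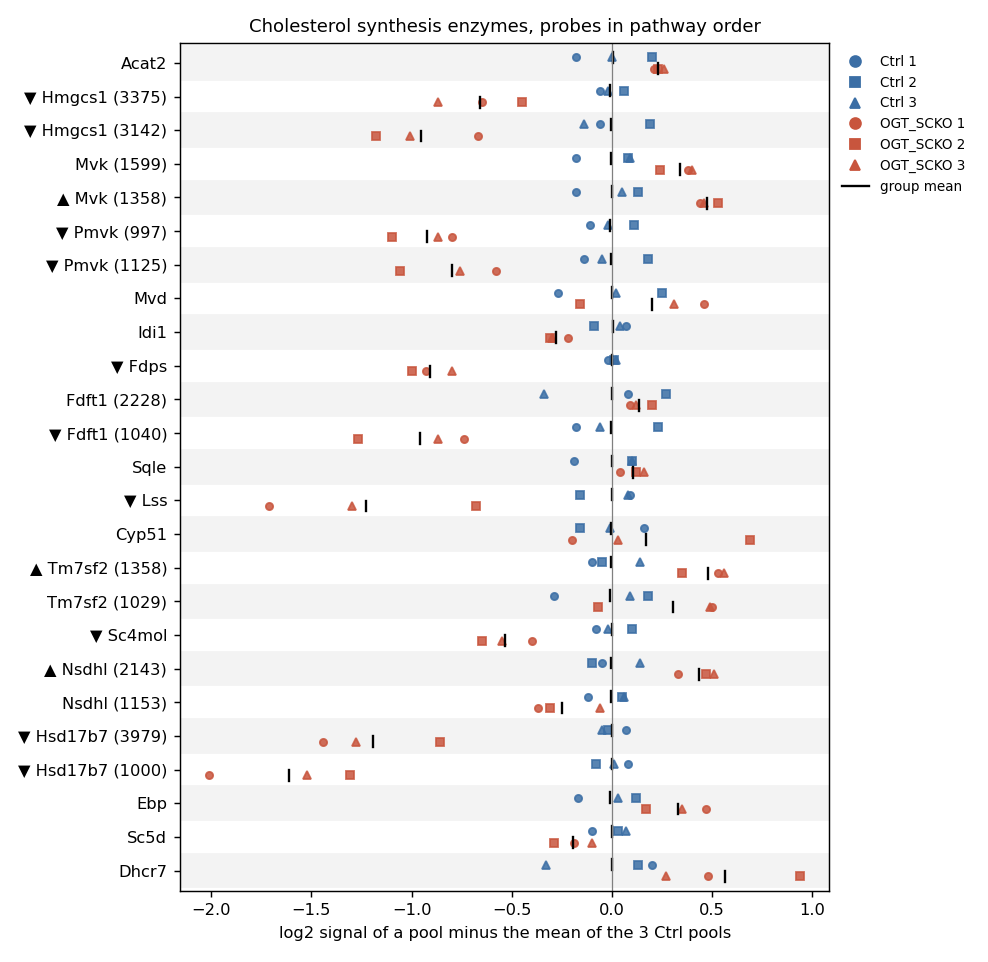
Signal of every tested synthesis enzyme probe in each of the 6 pools, as log2 signal minus the mean of the 3 Ctrl pools (horizontal axis), with 1 point per pool, its shape showing the replicate number, and a black bar for each group mean. Black triangles beside a name mark probes called lower (pointing down) or higher (pointing up), and the pools of Fdps, Pmvk and Hsd17b7 are apart while those of Sqle and Mvd overlap.

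At the head of the pathway, Acat2, a cytosolic thiolase that joins acetyl-CoA units, was not called. Its levels of 2.26, 2.64 and 2.44 in Ctrl 1 to 3 and 2.65, 2.67 and 2.70 in OGT_SCKO 1 to 3 gave a log2 difference of 0.23 (95% interval -0.07 to 0.53). Hmgcs1 makes HMG-CoA, the precursor of mevalonate, and was lower by both of its probes. At base 3142 of its transcript (chr13_random in the files) the level was 6.77, 7.02 and 6.69 in the Ctrl pools and 6.16, 5.65 and 5.82 in the OGT_SCKO pools. The groups were apart by more than the spread within either, with a 1.93-fold lower level (log2 fold change -0.95, SE 0.17, limma adjusted p = 0.00924). The dimmer probe, at base 3375 of another transcript, read -1.88, -1.76 and -1.84 against -2.47, -2.27 and -2.69, which is 1.57-fold lower (adjusted p = 0.0156). That second call ended with slide as a fixed block (adjusted p = 0.097), with normexp background correction (0.0952), with no filter on dim probes (0.0513) and without Ctrl 2 (0.0579), Ctrl 3 (0.0613) or OGT_SCKO 3 (0.061).

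The next enzymes had probes called in different directions. Mevalonate kinase, Mvk, had levels of 1.98, 2.29 and 2.21 in the Ctrl pools and 2.60, 2.69 and 2.62 in the OGT_SCKO pools at base 1358. All OGT_SCKO pools were above all Ctrl pools, a 1.39-fold rise (log2 fold change 0.48, SE 0.12, adjusted p = 0.0308). Its probe at base 1599 read 2.11, 2.37 and 2.38 against 2.67, 2.53 and 2.69, and was not called (log2 difference 0.35, adjusted p = 0.0834). That probe passed with quantile normalisation (0.0329), in the authors' deposited values (0.0365) and with a variance trend (0.049). The call at base 1358 ended once slide was a block (adjusted p = 0.242), with normexp correction (0.0504), with no filter on dim probes (0.0943) and without Ctrl 1 (0.0974), Ctrl 2 (0.0517), Ctrl 3 (0.0889), OGT_SCKO 2 (0.0549) or OGT_SCKO 3 (0.101). Phosphomevalonate kinase, Pmvk, which acts on the product of Mvk, was lower. On chr3 at 89272739 to 89272798 (mm9) its level was 4.36, 4.58 and 4.45 in Ctrl and 3.67, 3.37 and 3.60 in OGT_SCKO. No pool of one group reached the other, and the fall was 1.89-fold (log2 fold change -0.92, SE 0.13, adjusted p = 0.0038). A second Pmvk probe, at base 1125, read 4.75, 5.07 and 4.84 against 4.31, 3.83 and 4.13 (1.75-fold lower, adjusted p = 0.0144). Its call ended once slide was a block (adjusted p = 0.0569) and without Ctrl 2 (0.0506), Ctrl 3 (0.052) or OGT_SCKO 3 (0.0556). Mvd, which makes isopentenyl diphosphate, was not called (log2 difference 0.20, 95% interval -0.29 to 0.69).

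Of the isoprenoid enzymes, Idi1, which interconverts isopentenyl and dimethylallyl diphosphate, was not called, although its Ctrl levels of 4.09, 3.93 and 4.06 all lay above the OGT_SCKO levels of 3.80, 3.71 and 3.72 (adjusted p = 0.0965). Fdps joins these units into farnesyl diphosphate, the branch point toward sterols, dolichol and protein prenylation. Its level on chr3 at 88897549 to 88897608 was 4.86, 4.89 and 4.90 in Ctrl and 3.95, 3.88 and 4.08 in OGT_SCKO. The Ctrl pools lay close together (SD 0.018, n = 3) and every OGT_SCKO pool lay below them. Fdps was 1.88-fold lower (log2 fold change -0.91, SE 0.10, adjusted p = 0.00185), and it stayed called in every leave-one-out fit and with slide as a block. The gap between Fdps and Idi1 signals within an array, a difference of log2 values, went from 0.77, 0.97 and 0.84 to 0.15, 0.17 and 0.36. This pair was set side by side with the calls known, so the change of -0.63 is given with no test.

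Fdft1, squalene synthase, commits farnesyl diphosphate to sterols, and its 2 probes differed. The probe that starts at base 1040 lies across an exon junction, from 63765750 to 63769990 on chr14 (mm9, minus strand), and is printed because it carries the call.
Fdft1 probe: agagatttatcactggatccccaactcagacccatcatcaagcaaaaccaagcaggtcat

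That Fdft1 probe read 5.03, 5.44 and 5.15 in Ctrl and 4.47, 3.94 and 4.34 in OGT_SCKO. All OGT_SCKO pools were below all Ctrl pools, by 1.94-fold (log2 fold change -0.96, SE 0.18, adjusted p = 0.0115). The other probe, at base 2228 (chr14, 63764562 to 63764621), was dim, with -4.29, -4.10 and -4.71 against -4.28, -4.17 and -4.25, and its groups overlapped (log2 difference 0.13, adjusted p = 0.589). The difference between the probes within an array went from 9.32, 9.54 and 9.86 to 8.74, 8.12 and 8.6 (change -1.09, given with no test since the probes were set against each other with their values known). Sqle, the oxygenase that turns squalene into its epoxide, read 3.57, 3.86 and 3.86 in Ctrl and 3.80, 3.88 and 3.92 in OGT_SCKO. It was not called, and its log2 difference of 0.10 had a 95% interval from -0.19 to 0.39.

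Lss closes the sterol ring to give lanosterol. On chr10 at 76015992 to 76016051 it read -0.06, -0.31 and -0.07 in Ctrl and -1.86, -0.83 and -1.45 in OGT_SCKO, where the pools spread more widely but stayed below every Ctrl pool. The fall was 2.35-fold (log2 fold change -1.23, SE 0.25, adjusted p = 0.0162). The call ended once slide was a block (adjusted p = 0.144) and without Ctrl 1 (0.0592), Ctrl 3 (0.0633) or OGT_SCKO 3 (0.0652). Cyp51, the lanosterol demethylase, was not called (log2 difference 0.18, 95% interval -0.38 to 0.74).

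Between lanosterol and cholesterol, the strongest fall was in Hsd17b7, which reduces the ketone left after demethylation at carbon 4. Its probe on chr1 at 171883182 to 171883241 read 1.25, 1.09 and 1.18 in Ctrl and -0.84, -0.14 and -0.35 in OGT_SCKO. This 3.06-fold difference (log2 fold change -1.61, SE 0.19, adjusted p = 0.00196) was the largest among the tested member probes. A second probe, at base 3979, read 1.02, 0.93 and 0.90 against -0.49, 0.09 and -0.33 (2.28-fold lower, adjusted p = 0.00389), and its call ended once slide was a block (adjusted p = 0.0522). A further Hsd17b7 probe, for another transcript, was above background on 2 Ctrl arrays and on 0 OGT_SCKO arrays, and was not tested. Sc4mol, which oxidises the methyl groups at carbon 4, read 5, 5.18 and 5.06 against 4.68, 4.43 and 4.53 on chr8 at 67196982 to 67197041. It was 1.45-fold lower (log2 fold change -0.53, adjusted p = 0.0189). The Sc4mol call ended once slide was a block (adjusted p = 0.09), with no filter on dim probes (0.0664), with quantile normalisation (0.0765), in the authors' deposited values (0.0845) and without Ctrl 1 (0.051), Ctrl 2 (0.0715), Ctrl 3 (0.0712) or OGT_SCKO 3 (0.0798).

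Enzymes of the same stretch were called higher. Tm7sf2, a sterol C14 reductase, read 3.98, 4.03 and 4.22 in Ctrl and 4.61, 4.43 and 4.64 in OGT_SCKO at base 1358, a 1.4-fold rise (adjusted p = 0.0298). At base 1029 it was not called (log2 difference 0.31, adjusted p = 0.299). The Tm7sf2 call ended once slide was a block (adjusted p = 0.143), with normexp correction (0.0526), with no filter on dim probes (0.092) and without Ctrl 1 (0.103), Ctrl 2 (0.0975), Ctrl 3 (0.0559), OGT_SCKO 1 (0.0505) or OGT_SCKO 3 (0.115). Nsdhl, which removes the carboxyl group left at carbon 4, had probes of opposite sign. At base 2143 it read -2.14, -2.19 and -1.95 in Ctrl and -1.76, -1.62 and -1.58 in OGT_SCKO, 1.36-fold higher (adjusted p = 0.0374). At base 1153 it read 2.99, 3.16 and 3.17 against 2.74, 2.80 and 3.05, with overlapping groups and no call (log2 difference -0.24, adjusted p = 0.2). The difference of the Nsdhl probes within an array went from 5.13, 5.35 and 5.12 to 4.5, 4.41 and 4.63, also given with no test. The Nsdhl call ended once slide was a block (adjusted p = 0.125), with no filter on dim probes (0.111) and without Ctrl 1 (0.117), Ctrl 2 (0.124), Ctrl 3 (0.0658), OGT_SCKO 2 (0.0648) or OGT_SCKO 3 (0.136). The last enzymes were not called. Ebp, the sterol isomerase, had levels of 3.33, 3.62 and 3.53 against 3.97, 3.67 and 3.85 (log2 difference 0.33, adjusted p = 0.112). It passed with quantile normalisation (0.46, adjusted p = 0.0163) and in the authors' deposited values (adjusted p = 0.0172). Sc5d, the sterol desaturase, gave -0.20 (adjusted p = 0.224). Dhcr7, which reduces 7-dehydrocholesterol, read -0.31, -0.38 and -0.84 against -0.03, 0.43 and -0.24 (log2 difference 0.56, 95% interval 0.04 to 1.08, adjusted p = 0.109).

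The OGT_SCKO pool with the lowest signal differed between the 10 lower synthesis probes. It was OGT_SCKO 2 for 6 of them (Hmgcs1 at base 3142, both Pmvk probes, Fdps, Fdft1 and Sc4mol), OGT_SCKO 1 for Lss and both Hsd17b7 probes, and OGT_SCKO 3 for Hmgcs1 at base 3375. In OGT_SCKO 1 to 3 the mean Schwann cell marker level was 5.14, 4.58 and 5.01 and the mean adipocyte marker level -4.25, -5.78 and -3.45. The mean fibroblast marker level was 5.20, 4.62 and 4.91 in the same order. Endothelial and skeletal muscle means were also lowest in OGT_SCKO 2, while macrophage, mural, perineurial and neutrophil means were not. The 6 probes lowest in OGT_SCKO 2 were bright, with OGT_SCKO means of 3.55 to 5.88. The other lower synthesis probes had OGT_SCKO means of -2.48 to -0.24. The 75th percentile of array signal was 3462, 6158 and 4805 in OGT_SCKO 1 to 3. With quantile normalisation the 6 probes lowest in OGT_SCKO 2 were 1.23-fold to 1.71-fold lower, against 1.45-fold to 1.94-fold in the main fit. The other lower synthesis probes were 1.55-fold to 3.03-fold lower, against 1.57-fold to 3.06-fold. The part of the marker levels and of the array signal in the result was not tested.

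The SREBP control genes showed no call, with 0 of 6 tested probes of 4 genes and a median log2 difference of 0.10. Srebf2, the gene of SREBP2, read 2.01, 2.17 and 2.05 in Ctrl and 2.17, 2.15 and 2.25 in OGT_SCKO (log2 difference 0.11, 95% interval -0.13 to 0.36), and 0.10 by a second probe. Scap, the escort protein, read 3.35, 3.53 and 3.42 against 3.14, 2.96 and 3.10. Its groups did not overlap, and the log2 difference of -0.37 (95% interval -0.63 to -0.10) missed the threshold at adjusted p = 0.0544. It passed with a variance trend (0.0336) and with slide as a random block (0.045). Insig1, the sterol-sensing anchor of SCAP and itself an SREBP target, varied widely, with 1.04, 0.06 and 0.67 in Ctrl and -0.26, 0.71 and 0.10 in OGT_SCKO. Its log2 difference of -0.41 had a 95% interval from -1.18 to 0.36. Insig2 gave 0.09 and 0.18 by its 2 probes, with adjusted p of 0.521 and 0.432.

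Of the uptake genes, only Scarb1 was called, and it rose by both probes. Scarb1 encodes the receptor for high-density lipoprotein, which takes up cholesterol esters without taking in the particle. On chr5 at 125761540 to 125761599 it read -1.70, -1.88 and -1.96 in Ctrl and -1.10, -0.57 and -0.85 in OGT_SCKO, 2.01-fold higher with no overlap (log2 fold change 1.01, SE 0.16, adjusted p = 0.00677). At base 2435 it read 0.44, 0.50 and 0.39 against 0.71, 1.12 and 1.1, 1.45-fold higher (adjusted p = 0.0372). Neither was called once slide was a block (adjusted p = 0.066 and 0.218). The probe at base 2435 also lost its call with normexp correction (adjusted p = 0.0607), with no filter on dim probes (0.0997) and without Ctrl 1 (0.105), Ctrl 2 (0.0884), Ctrl 3 (0.123), OGT_SCKO 2 (0.0699) or OGT_SCKO 3 (0.134). Lrp1, a large endocytic receptor for lipoproteins, was not called by either tested probe (log2 differences -0.11 and 0.09), and a further probe was not above background on any array. Mylip, the ligase that marks lipoprotein receptors for degradation, read 2.11, 2.15 and 2.19 against 1.80, 1.81 and 1.95. All its OGT_SCKO pools lay below Ctrl at this probe, but the difference of -0.29 was not called (adjusted p = 0.0806), and passed with a variance trend (0.0395). A second Mylip probe gave -0.24 (adjusted p = 0.389).

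**Figure D4:**
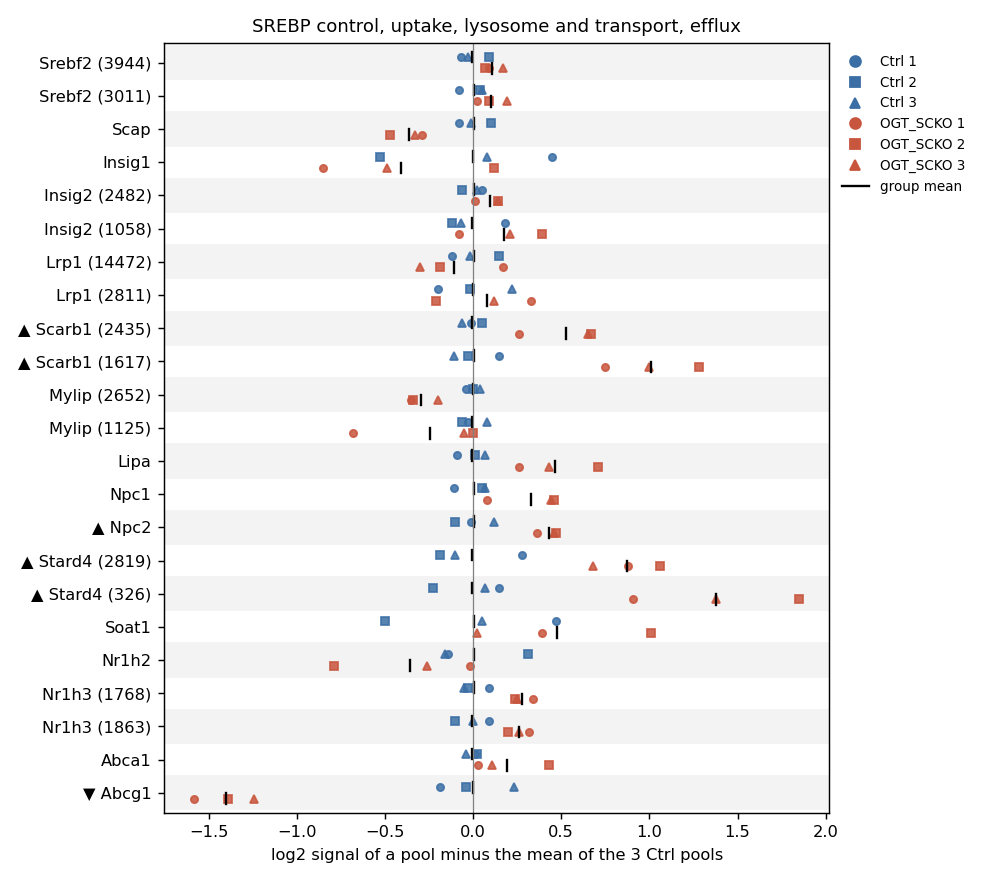
Signal of every tested probe of SREBP control, uptake, lysosome, transport and storage, and efflux genes in each of the 6 pools, as log2 signal minus the mean of the 3 Ctrl pools (horizontal axis), with 1 point per pool and a black bar for each group mean. Black triangles beside a name mark called probes. Scarb1 and Stard4 are higher and Abcg1 is lower in every OGT_SCKO pool, while the pools of Insig1 and Soat1 overlap.

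Genes that release and move cholesterol inside the cell had positive differences at all 6 tested probes, with a median of 0.47, and 3 probes of 2 genes were called higher. Those 3 were 50% of the probes, against 11.6% of all probes tested, and none stayed called with slide as a block. Of all probes tested, 54.9% had negative differences. The Soat1 probe, counted in the 6 and in the median, was above background on 2 Ctrl and 3 OGT_SCKO arrays. It passed the filter through OGT_SCKO alone, so its positive sign is no support. In 5 of the 6 (83.3%) all OGT_SCKO pools lay above all Ctrl pools, against 21.0% of all probes tested. Stard4, a soluble sterol carrier that is a known SREBP2 target, rose most. Its dim probe at base 326 read -3.54, -3.92 and -3.62 in Ctrl and -2.78, -1.84 and -2.31 in OGT_SCKO, 2.61-fold higher (log2 fold change 1.38, SE 0.24, adjusted p = 0.00937). Its probe at base 2819 read 0.08, -0.39 and -0.30 against 0.68, 0.86 and 0.48, 1.84-fold higher (adjusted p = 0.0125). No pools overlapped at either. Both missed the threshold once slide was a block (adjusted p = 0.0513 and 0.054), and the second missed it without Ctrl 3 (0.0563). Npc2, which hands cholesterol over inside the lysosome, read 3.48, 3.39 and 3.61 against 3.85, 3.96 and 3.95, 1.35-fold higher (log2 fold change 0.43, SE 0.11, adjusted p = 0.0319). That call ended once slide was a block (adjusted p = 0.111), with normexp correction (0.0845), with no filter on dim probes (0.104) and without Ctrl 1 (0.101), Ctrl 2 (0.111), Ctrl 3 (0.0664), OGT_SCKO 2 (0.0555) or OGT_SCKO 3 (0.118).

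The other genes of this role were not called. Lipa, lysosomal acid lipase, read 0.49, 0.59 and 0.65 against 0.84, 1.29 and 1.01, and its difference of 0.47 (95% interval 0.13 to 0.81) had an adjusted p of 0.0565. Npc1, the membrane partner of NPC2, gave 0.32 (adjusted p = 0.134), from -0.19, -0.03 and -0.01 to 0.00, 0.38 and 0.36. Without OGT_SCKO 1 both passed (adjusted p = 0.0289 for Lipa and 0.0368 for Npc1). Lipa also passed with slide as a random block (0.0376) and with a variance trend (0.0326). Soat1, which esterifies cholesterol for storage, was dim and above background on 2 of 3 Ctrl arrays, and its groups overlapped (log2 difference 0.47, 95% interval -0.30 to 1.24). Lysosomal genes are also abundant in macrophages, whose markers ran from 1.58 to 1.91 in Ctrl and 1.89 to 2.12 in OGT_SCKO, and the part of this in the result was not tested.

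In efflux, Abcg1 fell while Abca1 and the LXR genes were not called. Abcg1 hands cholesterol to high-density lipoprotein. On chr17 at 31252580 to 31252639 it read 0.66, 0.81 and 1.08 in Ctrl and -0.73, -0.54 and -0.39 in OGT_SCKO. The groups were wide apart, with a 2.64-fold lower level (log2 fold change -1.40, SE 0.15, adjusted p = 0.00157), and the call held without each pool in turn and with slide as a block (adjusted p = 0.0295). Abca1, which loads cholesterol onto lipid-poor apolipoprotein A-I, read -0.84, -0.83 and -0.89 against -0.82, -0.42 and -0.74 (log2 difference 0.19, 95% interval -0.12 to 0.51). The gap between Abcg1 and Abca1 within an array, a difference of log2 signals, fell from 1.5, 1.63 and 1.96 to 0.09, -0.12 and 0.35 (change -1.59). This pair too was chosen with the calls known and has no test. Nr1h3, the gene of LXR alpha, was not called at base 1768 or 1863 (differences 0.27 and 0.26, adjusted p = 0.0976 and 0.114), although all OGT_SCKO pools lay above all Ctrl pools at both. Nr1h2, the gene of LXR beta, gave -0.36 (adjusted p = 0.288).

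A wider list of 36 other genes of sterol metabolism, taken by function, had 53 tested probes, of which 11 (20.8%, 8 genes) were called lower and 6 (11.3%, 5 genes) higher, beside 11.9% and 11.6% of all probes. Among other sterol and isoprenoid enzymes 4 of 12 probes were lower and none higher. They were Acat1, a mitochondrial thiolase (log2 fold change -0.43, adjusted p = 0.0341), 1 of 3 probes of Ggps1, which makes geranylgeranyl diphosphate (-0.55, adjusted p = 0.0198), and both probes of Dhdds, a subunit of the enzyme that draws on farnesyl diphosphate to make dolichol. The other Ggps1 probes gave -0.19 and -0.05 (adjusted p = 0.322 and 0.776). Dhdds read -0.19, -0.20 and -0.07 in Ctrl and -1.22, -1.36 and -1.30 in OGT_SCKO by one probe and 0.13, 0.14 and 0.32 against -0.99, -0.89 and -0.97 by the other. The falls were 2.19-fold and 2.21-fold (adjusted p = 0.000793 and 0.000877), and both held with slide as a block.

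Among other regulators, Srebf1 (-0.42, adjusted p = 0.0357), the gene of the SREBP that mainly drives fatty acid synthesis, and 1 of 2 probes of Tmem97 (-0.47, adjusted p = 0.0263), which binds NPC1, were lower. The other Tmem97 probe gave -0.28 (adjusted p = 0.326). Of the proteases that cut SREBP, Mbtps2 was called higher (0.43, adjusted p = 0.0202), a call that ended with normexp correction (0.399). Mbtps1 was called by a dim probe (0.65, adjusted p = 0.0224, and 0.291 with normexp correction) that was above background on 1 of 3 Ctrl arrays and so passed the filter through OGT_SCKO alone. A brighter Mbtps1 probe showed a difference of 0.00 (adjusted p = 0.992), and no change of Mbtps1 is read from these values. Of receptors and carriers, Lrpap1, a chaperone of lipoprotein receptors, was lower by both probes (-0.46 and -0.44). The sterol transfer proteins of the GRAMD1 family were higher for Gramd1a (0.64 and 0.92 by its probes, adjusted p = 0.0219 and 0.0102) and Gramd1c (0.85, adjusted p = 0.00695). Nceh1, a cholesterol ester hydrolase, was higher (0.35, adjusted p = 0.0417), and Scp2, a peroxisomal sterol carrier and thiolase, was lower by 1 of 2 probes (-0.34, adjusted p = 0.0477, and -0.17 with adjusted p = 0.223 by the other). Abcg4, an exporter closely related to Abcg1, was lower by 2 of 3 probes (1.82-fold and 2.23-fold, adjusted p = 0.021 and 0.00293). Of these 17 called probes, 5 held in all 6 leave-one-out fits, namely both of Dhdds and 1 each of Gramd1a, Gramd1c and Abcg4. With slide as a fixed block 3 held, those of Dhdds and 1 of Abcg4. The calls of Acat1, Ggps1, Srebf1, Tmem97, Lrpap1, Mbtps1, Mbtps2, Nceh1 and Scp2 all ended with slide as a block.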

How the data were processed

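RNA of 6 pools was hybridised to 6 one-colour arrays. Per the file headers, Agilent Feature Extraction 11.5.1.1 produced the deposited intensity of each spot and subtracted background (the submitters' processing notes name the same version), and the deposited files carry other flags for spots above background, saturated or outlying. The authors' deposited table of log2 values, whose columns all have a median of 9.129, was used as an alternative, with the normalisation not stated in the labels or file. Its columns correlated with the scanner log2 values of the same array at 0.9958 to 0.9998.

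The processed signal was taken as log2 and each array's 75th percentile subtracted. Control and outlier spots were left out (40 probes lost at least 1 array), spots of a probe averaged, and 24287 of 39429 probes kept because every array of 1 or both groups had them well above background. The comparison used limma 3.58.1 (lmFit, eBayes; R 4.3.3), with Benjamini-Hochberg adjustment over kept probes and calls at an adjusted p under 0.05. Intervals are 95% intervals of that fit. Fits were tested on simulated data. The number of arrays limits the precision.

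Each probe was taken apart. Levels of different probes do not give the order of transcript levels. For 4 pairs of probes the difference within an array is given, to describe whether it moved between groups. All members were named, and of the wider list those called. Members, lists and alternatives were chosen with earlier results of these data known. Of 50 member probes, 46 accessions were in the RefSeq table, 45 under the same symbol. Probe positions are those of the files (mm9), and exon or UTR annotation for mm9 was not used. Marker lists for fibroblasts, endothelial, mural, perineurial cells and neutrophils are given in the closing section. Alternatives were quantile or median scaling, normexp correction (offset 50), other filters, the deposited values, 1 probe per gene, slide or replicate number as a block, slide 1 alone, other variance models and leaving out each array.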

Additional observations from a re-analysis of the deposited data

How the results depend on the processing

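No called member probe changed sign under any alternative run. Over all probes 5701 were called, with 11 member probes lower and 8 higher and a synthesis median of -0.20. Normexp correction called 3427 probes (4 members higher), no filter on dim probes 3367 (3 higher, with 7 of the 19 member calls ended), and 1 probe per gene left 4 members higher. Quantile normalisation and the deposited values each put the synthesis median at -0.05. Slide as a fixed block called 1653 probes (6 members lower, 0 higher). Slide as a random block called 6667 (12 lower, 9 higher) and kept all 19 member calls. Slide 1 alone called 599 (0 lower, 0 higher). A replicate block called 2022 probes, with 5 members lower, 1 higher and a median of -0.20. Same-numbered pools did not deviate together (correlations -0.28, -0.53 and 0.07), so the numbers were not taken as pairs. Leaving out 1 array gave 2636 to 7168 probes called, 7 to 11 members lower, 2 to 9 higher and medians of -0.24 to -0.15. Calls were 10 lower and 10 higher with quantile normalisation, and 11 and 8 with median scaling, with a filter on all 6 arrays and with robust variances. Of the 19 called member probes, 9 held in all leave-one-out fits and 6 with slide as a fixed block. Dim probes (Fdft1 at base 2228, Soat1) limit what can be seen of their genes. Slide 2 held controls only, so the fixed slide block rests on 1 control pool for the contrast.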

Other observations

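Of the remaining cell type markers, fibroblast genes had 0 of 5 called, with mean levels of 5.01 to 5.41 in Ctrl and 4.62 to 5.20 in OGT_SCKO. Endothelial markers ran from -0.75 to -0.61 in Ctrl and from -1.16 to -0.81 in OGT_SCKO. All 6 endothelial probes had negative differences, and 1 of them, of Kdr, was called lower (2.05-fold, limma adjusted p = 0.00115), while the brighter Kdr probe was not (-0.89, adjusted p = 0.0702). Perineurial markers ran from 2.26 to 2.35 in Ctrl and from 1.85 to 2.09 in OGT_SCKO, with 0 of 3 called. Mural markers ran from 0.08 to 0.22 against -0.18 to 0.28, with 1 of 4 called higher, and neutrophil markers from -5.27 to -4.41 against -3.74 to -3.41. The 1 called neutrophil gene, Retnlg, was above background on 0 Ctrl and 3 OGT_SCKO arrays and so passed the filter through OGT_SCKO alone, while S100a8 and Ly6g each gave a difference of 0.03 and S100a9 one of 0.37, none of them called. The part of these levels in the results on cholesterol genes was not tested.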
